A study of Rattus norvegicus with 24 samples.

Results

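The array used here carried 1185 features, and 84 of them are described: those with a listed intensity on all 24 arrays, from rat left ventricle after infarction or sham surgery. A listed value on every array was found for 95 features. R371, which read exactly 100 on all 24 arrays, and 10 features left out by ID (RG316, R364, RG421, R592, R045, R439, RG054, R630, R689 and R261) were taken away to give the 84. The IDs could not be paired with genes, since 0 of them matched the RefSeq table at hand, so the 84 are given by ID, and neither their sequences nor markers of ventricular muscle could be checked. The members were selected on the deposited intensities themselves, by being listed on every array, so a high signal is part of the choice and is given as a description.

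The samples were total RNA of operated rats, 1 array per sample, in 4 groups of 6: sham surgery or myocardial infarction (MI), each at 1 or 7 days after the operation. Sham samples were the left ventricle with the septum, and MI samples were the same tissue without the infarct zone, so the region sampled differed between the operations. For sham day 1, titles and keywords give 1 day but the descriptions give 7, and groups follow the titles. Whether each sample came from its own animal is not stated in the labels, and p-values then measure only the spread between these samples, which may be technical. Strain, age and sex were not in the labels used.

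As background, an infarct kills part of the ventricular wall, and the muscle outside it carries on pumping under a higher load. In the first days inflammatory cells enter the heart and clear dead muscle, after which fibroblasts lay down collagen and surviving muscle cells enlarge. Ventricular RNA is dominated by transcripts for contraction and for energy supply by mitochondria, which muscle cells hold at high levels at all times. In bulk tissue, fewer cells of a type and less RNA per cell cannot be told apart.

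The arrays differed in how many features they listed, and 63.3% of all cells were blank. Arrays that listed under 300 features are called sparse below. These were 6 arrays, 3 sham and 3 MI, all from day 1 (replicates 2, 3 and 4 of each group). They listed 141 to 296 features, while the other 18 listed 404 to 684. The median over all listed features was alike, with 96.9 to 107.5 where few features were listed and 91.1 to 100.6 otherwise. The members made up 28.4% to 59.6% of what a sparse array listed and 12.3% to 20.8% on the others. Results are therefore set beside values without the 6 sparse arrays where those differ. The numbers in the titles were divided into 5 runs, each of a single day and split evenly between MI and sham. Days were therefore compared only between runs. In title order, run 2 held all 6 sparse arrays and, beside them, only replicate 1 of sham day 1 and of MI day 1. Run 5 held replicates 5 and 6 of both day 1 groups, none of them sparse. Sparse and other day 1 arrays thus differed largely by run as well, and whether listing or run mattered was not tested. Neighbouring day 7 runs with unbroken numbers were separated where the titles return from MI to sham. The same return within a day 1 run was not cut, so the runs rest partly on the operation labels. Runs cut in another way were not tested.

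The 84 members were among the brighter features of the array. Their mean intensity over the 24 arrays ran from 62.7 to 524.0, with a median of 275.4 and quartiles of 212.5 and 358.1. The 10 features left out by ID lay in the same range, with a median of 248.3. The 31 features listed on 23 arrays had a median of 165.6, the 311 listed on 12 to 22 arrays 87.5, and the 486 listed on 1 to 11 arrays 56.3. Being listed more often thus went with a brighter signal. Intensities of different probes also depend on the probe, so the order below is an order of signal and not of RNA amount.

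The dimmest members are set here beside the features that just missed the rule. The lowest mean intensities inside it were 62.7 for R370, 129.7 for R676, 130.7 for R332 and 153.4 for RG430. Just outside stood the 31 features that missed a single array, with means from 78.6 to 479.3, so the edge was not a threshold of brightness. Of the 31, 24 were blank on a sparse array and 7 on another. The blank fell in the sham day 1 group for 21 of them, in MI day 1 for 8, in MI day 7 for 2 and in sham day 7 for 0, and sham day 1 replicate 3 alone accounted for 11. IDs beginning in RG were more often members, 44 of 483 (9.11%), than those beginning in R, 40 of 702 (5.70%). The RG members were also brighter, with a median of 316.4 against 241.2, and what the prefixes stand for is not stated in the labels.

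RG019 and RG330 led the members. RG019 read 311.7, 546.3 and 674.2 (lowest, median and highest of 6) in sham day 1, 375.1, 537.6 and 711.0 in MI day 1, 447.7, 525.5 and 564.8 in sham day 7, and 466.5, 504.9 and 596.3 in MI day 7. The 4 groups overlapped, and within day 1 the 6 sparse arrays (311.7 to 494.8) all lay below the 6 others (580.4 to 711.0). RG330 read 320.6, 557.4 and 635.4 in sham day 1 and 431.1, 555.3 and 653.5 in MI day 1, against 436.3, 522.7 and 558.1 in sham day 7 and 457.8, 503.5 and 593.6 in MI day 7. Its groups overlapped as well, and its sparse arrays (320.6 to 535.3) again lay below the other day 1 arrays (575.3 to 653.5). RG244 and R147 followed, with group medians of 458.3 to 528.6 and 459.1 to 545.8.

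R370 was the dimmest member by a wide margin. It read 34.8, 52.9 and 100 in sham day 1, 49.9, 61.9 and 66.2 in MI day 1, 46.4, 65.7 and 70.1 in sham day 7, and 49.5, 73.2 and 77.5 in MI day 7. All 4 groups overlapped, and the single value of exactly 100 was sham day 1 replicate 5. R332 read 35.1, 81.9 and 208.7 in sham day 1, 61.7, 124.5 and 212.6 in MI day 1, 121.1, 146.1 and 192.8 in sham day 7, and 118.3, 146.9 and 173.1 in MI day 7. Here the day 1 groups were the wide ones: the 6 sparse arrays held 35.1 to 108.6 and the 6 other day 1 arrays 112.3 to 212.6. R676 and RG430 had group medians of 130.3 to 144.9 and 122.5 to 182.5.

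**Figure D1:**
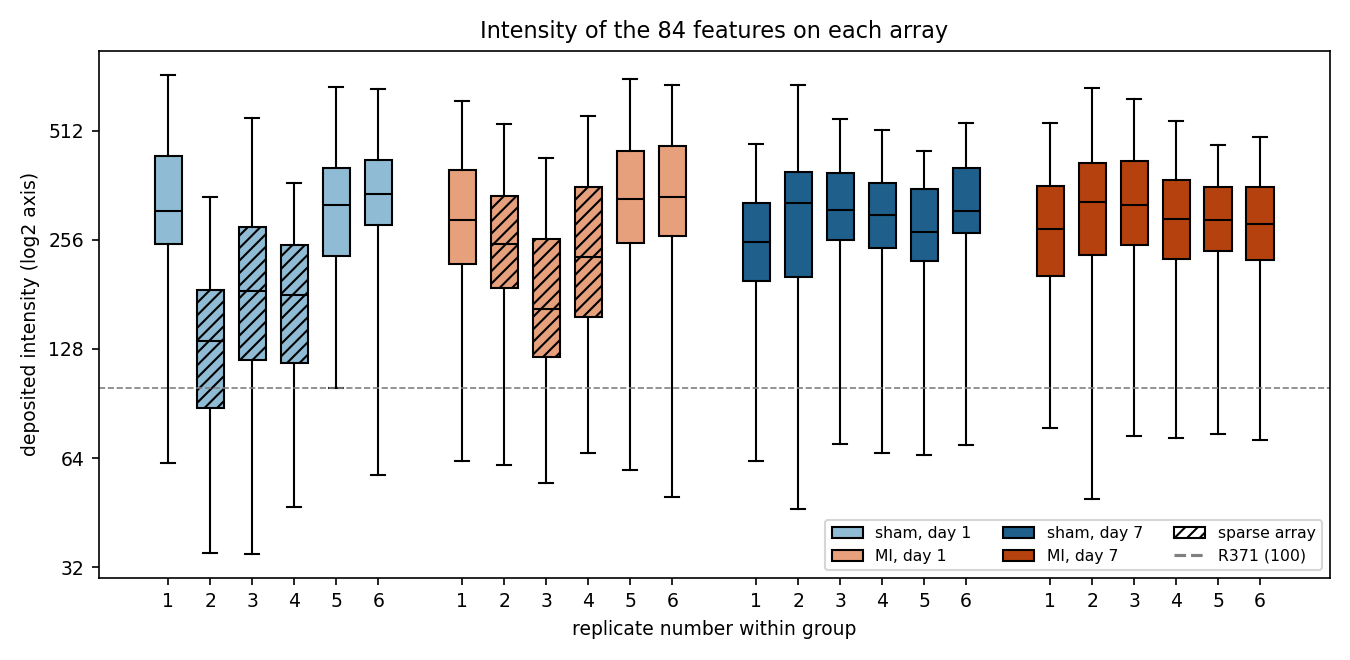
Deposited intensity (log2 axis) of the 84 members on each of the 24 arrays, by group and replicate number: boxes span the quartiles with the median as a line, whiskers reach the lowest and highest member, hatching marks sparse arrays, and the dashed line is R371 at 100. The members' median lies at 134.5 to 248.9 for the 6 sparse arrays and at 252.9 to 342.8 for the 18 others.

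The level of the members moved as a block with the array. The median member read between 134.5 and 248.9 on the 6 sparse arrays, and between 252.9 and 342.8 on the other 18, and these ranges did not touch. In the run of the sparse arrays, the arrays that were not sparse read 308.1 (sham day 1 replicate 1) and 290.0 (MI day 1 replicate 1). By group, the arrays' medians (lowest, median and highest of 6) were 134.5, 246.3 and 342.8 in sham day 1 and 164.5, 269.5 and 335.8 in MI day 1. They were 252.9, 303.2 and 323.8 in sham day 7 and 274.3, 291.7 and 325.4 in MI day 7. The day 7 ranges thus lay inside those of the day 1 groups. Members under 100 numbered 1 to 29 on a sparse array, and at most 2 elsewhere. Within an array, the SD of log2 intensity over the 84 members was 0.61 to 0.85 where the array was sparse and 0.47 to 0.69 elsewhere, so the members also stood farther apart there.

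Within day 1, sparse and other arrays can be set side by side, though most of the others came from another run. There, 84 of 84 members had a lower mean log2 intensity on the sparse arrays. The other arrays were higher by a median of 1.74-fold, from 1.20 to 2.98-fold, and for 44 members every sparse array lay below every other day 1 array. These counts were taken over the members only, with no share over all features beside them, so they are not read as particular to the members. R234 differed most, by -1.58 on the log2 scale, lying at 51.0 to 114.4 when sparse and at 187.6 to 313.9 otherwise. RG427 (-1.50) and R332 (-1.40) came next. R173 (-0.26), RG200 (-0.28) and R372 (-0.33) differed least. Across the 84 members, the signed difference (log2, sparse minus other) and the day 7 level had a Pearson r of 0.301, so the drop was on average smaller in brighter members. This describes members measured on the same arrays.

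The order of the members was largely kept from array to array. Ranks within an array are not moved by any scaling of the whole array. RG019 and RG330 were among the 10 brightest members on all 24 arrays, R147 and RG329 on 23, RG382 on 22 and RG244 on 20. In all, 21 members entered the 10 brightest on any array, and 63 never did. At the other end R370 was among the 10 dimmest on all 24 arrays, R332, R676 and RG430 on 22, R367 on 17 and R211 on 16. Here 29 members entered at least once and 55 never did.

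**Figure D2:**
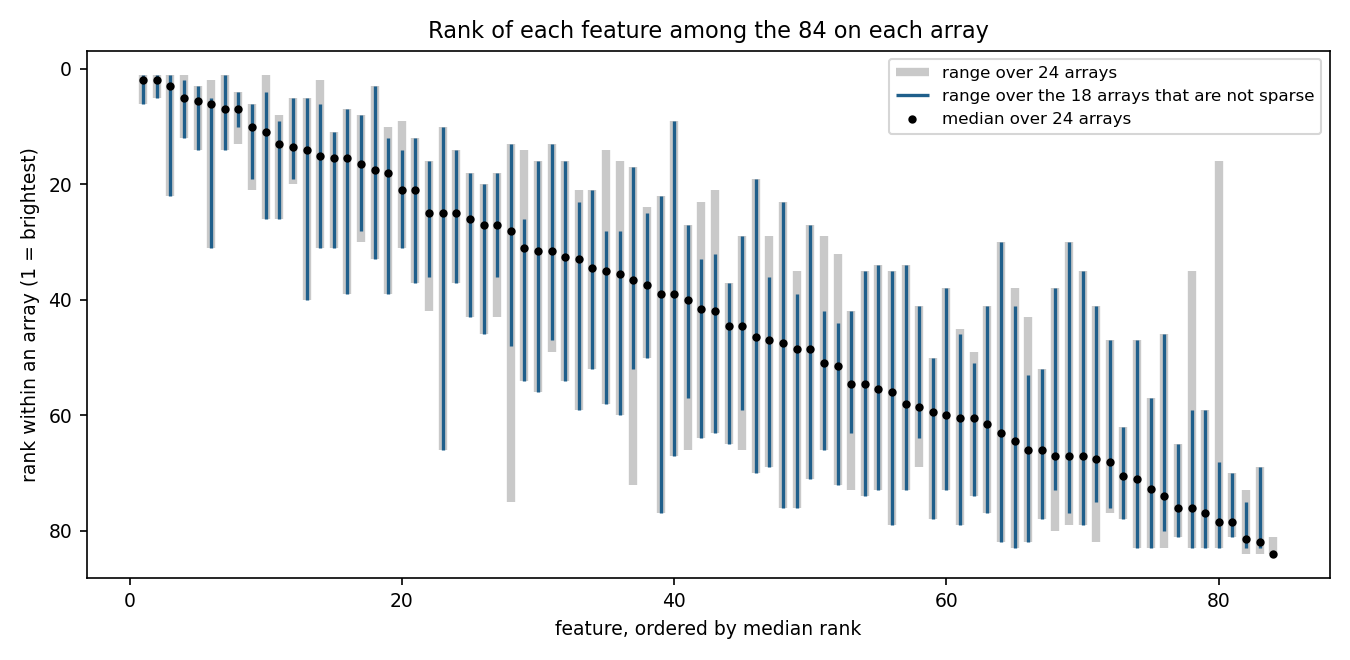
Rank of each of the 84 members within an array (1 is brightest), ordered by median rank, with the range over 24 arrays in grey, the range over the 18 arrays that are not sparse in blue, and the median as a point. Ends of the order are narrow and the middle is wide, with a median range of 33 ranks.

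Over the 24 arrays a member's rank ranged over a median of 33 places, from 3 to 67, and over 28 without the 6 sparse arrays. R370 held ranks 81 to 84 and was last on each of the 18 arrays that were not sparse. RG330 held ranks 1 to 5, RG019 ranks 1 to 6, and RG329 ranks 4 to 13. R367 moved most, from rank 16 to 83. It stood at ranks 68 to 83 on the 18 other arrays and at 16 to 75 on the sparse ones, where its intensity (100 to 264.6) overlapped that of the other day 1 arrays (150.6 to 219.3). RG032 went the other way, with ranks 13 to 48 on the 18 other arrays and 44 to 75 on the sparse ones. Its intensity there was 97.4 to 240.6 against 279.5 to 415.2 on the other day 1 arrays.

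R643 and RG050 also ranged widely in rank. R643 ranged over 58 places both with and without the sparse arrays, from rank 9 to 67. Its intensities were 95.5, 260.6 and 361.4 in sham day 1, 229.7, 284.4 and 321.2 in MI day 1, 213.7, 277.8 and 314.9 in sham day 7, and 275.3, 366.97 and 492.3 in MI day 7. Of the 6 MI day 7 arrays, 5 lay above all sham day 7 arrays. RG050 ranged from rank 10 to 66. In MI day 7 it read 242.8, 317.2 and 480.8, with both arrays of the first run highest (388.4 and 480.8), and in sham day 7 it read 301.0, 384.5 and 424.2.

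**Figure D3:**
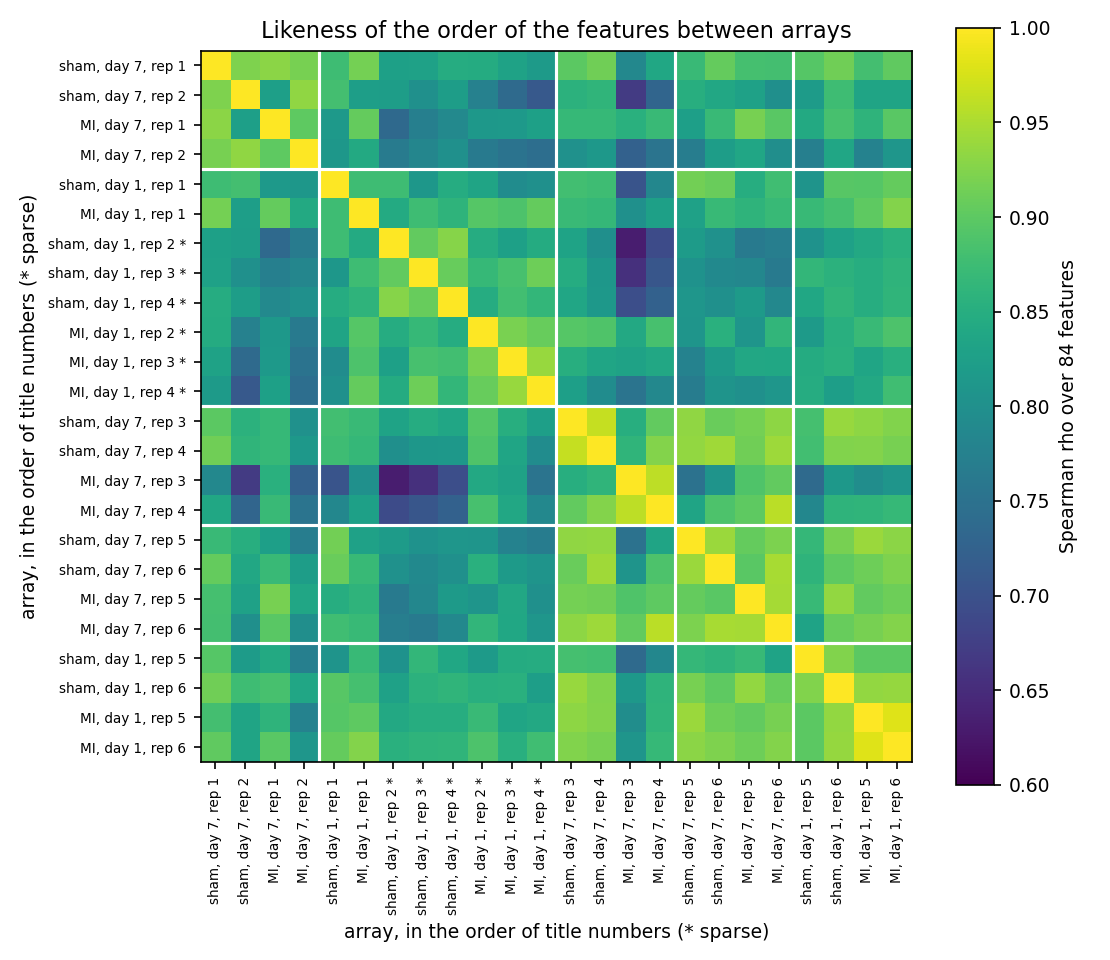
Spearman rho over the 84 members between each pair of the 24 arrays (colour scale), with arrays in the order of their title numbers, white lines between the 5 runs and a star on sparse arrays. Pairs range from 0.631 to 0.980, with a median of 0.853, and MI day 7 replicate 3 against the sparse sham arrays is the darkest area.

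Spearman's rho over the 84 members, computed for each of the 276 pairs of arrays, had a median of 0.853 and ranged from 0.631 to 0.980. Members are not replicates, so these values describe likeness and have no p. The 60 pairs within a group had a median of 0.895, and the 216 pairs across groups 0.844. Within a group the medians were 0.862 in sham day 1, 0.894 in MI day 1, 0.908 in sham day 7 and 0.898 in MI day 7. The most alike pair was MI day 1 replicates 5 and 6, and the least alike MI day 7 replicate 3 and sham day 1 replicate 2.

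Likeness also went with listing and with the run of title numbers, which largely coincide at day 1. At day 1, pairs of arrays of the same operation had a median rho of 0.913 where neither was sparse, 0.914 where both were, and 0.860 where 1 was. Pairs across operations at day 1 had 0.899, 0.865 and 0.848 in the same order. At day 7, where no array was sparse, 2 arrays of the same operation in the same run had a median of 0.944 (6 pairs), against 0.894 (24 pairs) in different runs. Across operations the medians were 0.912 within a run (12 pairs) and 0.832 between runs (24 pairs). Arrays of different operations in the same run thus had a higher median than arrays of the same operation in another run. That order came with the first run and was not seen among the later day 7 runs. There, pairs of the same operation in different runs had rho of 0.890 to 0.959. Pairs across operations within a run had 0.850 to 0.948. This describes the arrays under the division into runs given above and is no test. Between groups the medians ran from 0.785 (sham day 1 against MI day 7) to 0.868 (sham day 7 against MI day 7).

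The profile of the 84 group means gave the same order of likeness at its lowest end. Pearson r between group mean profiles ran from 0.877 for sham day 1 against MI day 7 to 0.962 for sham day 1 against MI day 1. R370 was last of the 84 in each of the 4 groups. RG019 was first or next to first in each group, while RG330 was first in both day 1 groups and within the first 3 at day 7.

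**Figure D4:**
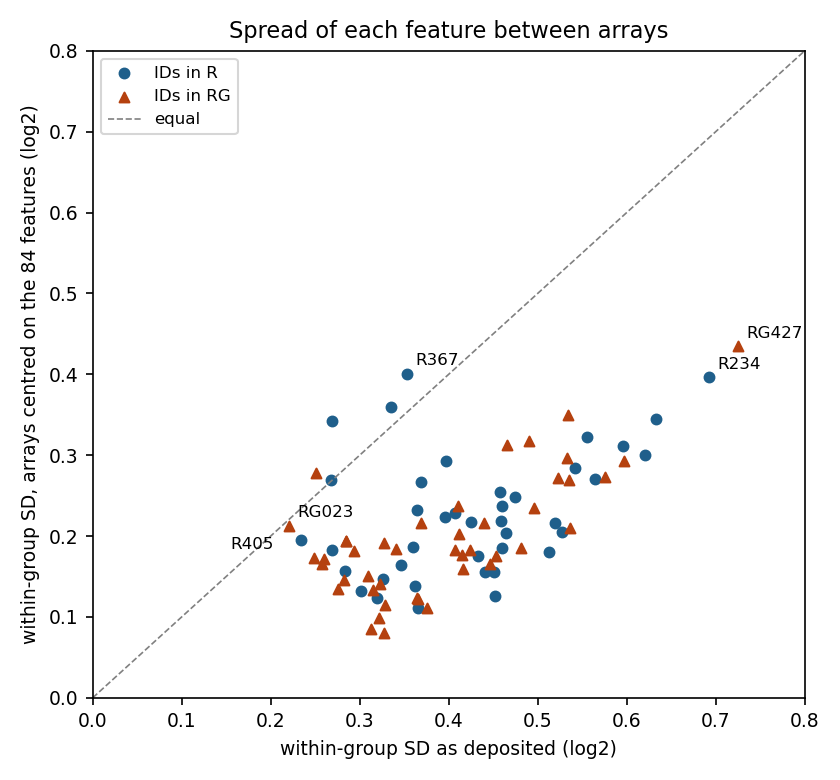
Pooled within-group SD of log2 intensity of each of the 84 members, as deposited (horizontal axis) and after each array was centred on the mean of the members (vertical axis), with IDs in R as circles, IDs in RG as triangles and a dashed line of equal values. The median is 0.41 as deposited and 0.19 centred, with 79 members spreading less and 5 more after centring.

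Arrays of a group spread widely for most members, and most of it was shared by all members of an array. The pooled within-group SD of log2 intensity had a median of 0.41 over the members, from 0.22 to 0.73. After each array was centred on the mean log2 intensity of the 84 members, the median was 0.19, from 0.08 to 0.44, and 79 members spread less and 5 more. That centring took away 71.6% of the within-group variance. Of the same variance, 68.6% lay between sparse and other arrays of a group. The SD was largest at day 1, with medians of 0.60 in sham and 0.40 in MI, against 0.19 and 0.20 at day 7. After centring these became 0.23, 0.19, 0.15 and 0.15. Without the 6 sparse arrays the centred median was 0.16.

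RG427, R234, R332 and R546 spread most, with pooled SDs of 0.73, 0.69, 0.63 and 0.62. RG427 read 43.1, 126.2 and 287.0 in sham day 1, 68.0, 123.3 and 242.7 in MI day 1, 132.1, 195.4 and 232.6 in sham day 7, and 136.3, 212.0 and 252.6 in MI day 7. Its sparse arrays held the lowest values of both day 1 groups, and the highest of its sparse values (130.7) passed the lowest of its other day 1 values (115.9). RG023, R405, RG389 and RG200 spread least, with pooled SDs of 0.22, 0.23, 0.25 and 0.25. RG023 read 310.7, 492.8 and 567.4 in sham day 1, 415.2, 507.7 and 565.8 in MI day 1, 359.8, 443.4 and 503.1 in sham day 7, and 358.8, 426.5 and 471.5 in MI day 7. These 4 were bright members, and across the 84 the Spearman rho of mean level with SD was -0.696 as deposited and -0.610 centred, given as a description.

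Most members were high on the same arrays and low on the same arrays. Over the 3486 pairs of members, the median Pearson r of deviations from the group means was 0.798 over the 24 arrays, with 99.8% of pairs positive. The first principal component held 78.8% of the within-group variance, and all 84 members loaded on it with the same sign. As sparse and other arrays form separate clusters, the values within each were also taken. The median r was 0.304 over the 18 arrays that were not sparse, with 74.6% of pairs positive and 39.8% of variance on the first component. Over the 6 sparse arrays it was 0.728.

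After centring on the members, the median r over 24 arrays was -0.018, with 48.5% of pairs positive, a value near 0 that centring itself brings about. The first component then held 32.5% of the variance and the second 20.01%. Over the 18 arrays that were not sparse, the first centred component held 45.6%. Its highest scores were 0.596 for MI day 7 replicate 2 and 0.517 for sham day 7 replicate 2, which are arrays of the first run. Without that run and the sparse arrays, on 14 arrays, the first component held 33.1%.

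Some pairs kept together once the array level was removed. RG077 and RG515 had the highest centred r of the 3486 pairs, 0.937 over 24 arrays (Spearman rho 0.925), with 0.905 on the 18 arrays that were not sparse and 0.938 on the 14 outside the first run. RG077 read 387.3, 457.7 and 490.3 in sham day 7 and 420.9, 469.0 and 624.6 in MI day 7, and RG515 read 332.8, 372.5 and 429.9 and 372.0, 405.7 and 536.1. R281 and RG515 had 0.911, with 0.843 on the 18 arrays and 0.949 on the 14. For RG200 and RG480 the r of 0.905 rested in part on the first run, since it was 0.818 on the 18 arrays and 0.503 on the 14. These pairs were picked as the highest and have no p.

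The pairs that moved most oppositely after centring were R234 with R405 (r -0.921), R211 with RG200 (-0.879) and R173 with R602 (-0.867). On the deposited scale the same pairs had r of 0.608, 0.348 and 0.531, so their sign turned with the centring. Over the 18 arrays that were not sparse, the deposited r was -0.337, -0.324 and 0.048, so for the first 2 pairs the sign also turned with leaving out the sparse arrays. R234 and R405 had a centred r of -0.867 on the 18 arrays that were not sparse and -0.852 on the 14. R211 with RG200 fell in size to -0.437 on the 14, and R173 with R602 to -0.531 on the 18. On the 6 sparse arrays R234 with R405 was weaker, at -0.454, while R211 with RG200 had -0.880 and R173 with R602 -0.832. R234 is among the members that spread most, and R405 and RG200 are among those that spread least.

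Differences between the groups were fitted with limma over every feature that had 3 or more values in both groups of a contrast, with Benjamini-Hochberg adjustment over all of them and calls at an adjusted p under 0.05. In each of the 5 contrasts 0 of the 84 members were called. The share called among all features tested was 0% (of 283) for MI against sham at day 1, 1.44% (of 486) at day 7, 0% (of 275) for the interaction of operation and day, 2.82% (of 354) for MI day 7 against day 1, and 0.311% (of 322) for sham day 7 against day 1. Features that earlier results named in these contrasts are among the 10 left out, so nothing is read from the members' counts of 0. At an unadjusted p under 0.05 the members numbered 4, 1, 0, 4 and 23 of 84 in that order, beside 22 of 283, 41 of 486, 7 of 275, 58 of 354 and 69 of 322 features tested, and the smallest adjusted p was 0.327, 0.568, 0.936, 0.177 and 0.130.

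**Figure D5:**
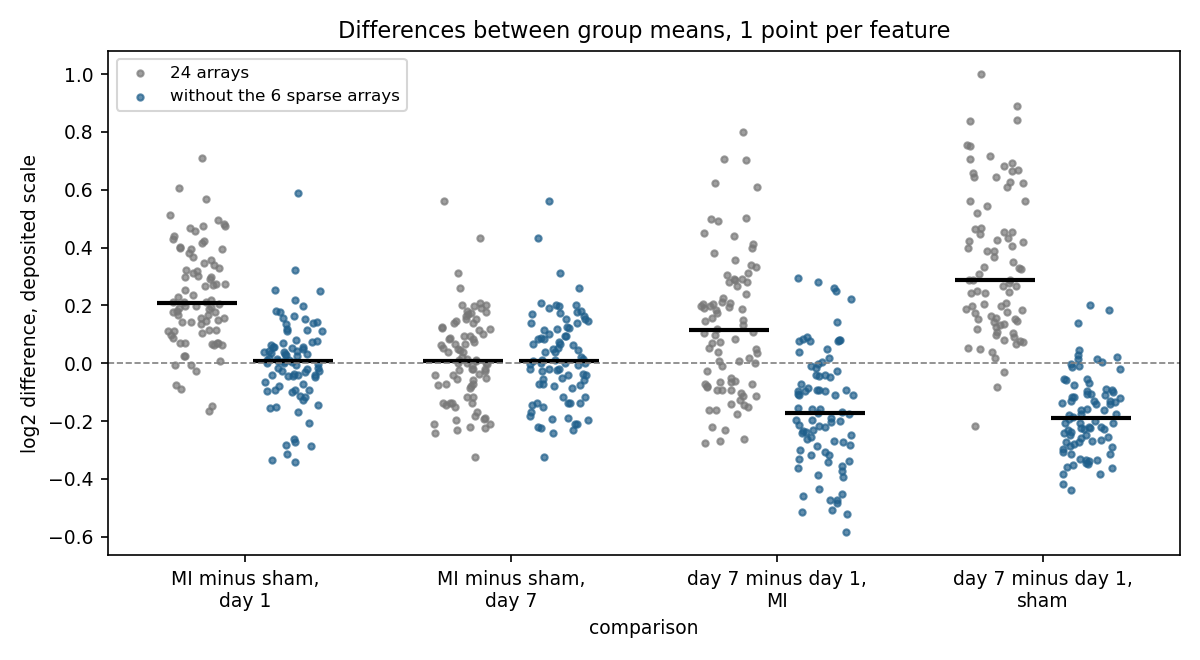
Fitted log2 difference between group means, 1 point per member, for MI minus sham at each day and day 7 minus day 1 in each operation, over 24 arrays (grey) and without the 6 sparse arrays (blue), with a black line at each median. The sham day 7 minus day 1 median moves from 0.29 with all arrays to -0.19 without the sparse ones.

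MI and sham hearts at day 1 differed in the members by a median of 0.21 (log2, MI minus sham), with 77 higher and 7 lower, beside 0.12 over all 283 features tested. Of those features 67.5% were higher. Without the 6 sparse arrays the members' median was 0.0090, with 46 higher, beside 0.037 over the 251 features then tested. Leaving out a single array gave medians from 0.065 (without sham replicate 2) to 0.324 (without MI replicate 3), and sham replicates 4 and 6 each moved it by over 1.5 times. R282 read 234.4, 355.1 and 447.3 in MI and 90.1, 238.2 and 401.5 in sham, and 2 MI arrays lay above all sham arrays. Its difference was 0.71 (SE 0.30), with an adjusted p of 0.380, and it was 0.25 without the sparse arrays. RG443 read 121.7, 252.3 and 353.7 in MI and 100, 154.5 and 245.7 in sham (0.60, SE 0.26, adjusted p 0.380), and 4 MI arrays lay above all sham arrays. Without the sparse arrays RG443 differed by 0.59. The lowest differences were -0.17 for R367 and -0.15 for RG050, with adjusted p of 0.847 and 0.944, and leaving out the sparse arrays gave -0.09 and 0.04. All 4 pairs of groups overlapped. Without sham day 1 replicate 1, 1 member, R362, was called at day 1 (0.73, adjusted p 0.0356), beside 5.85% of the 188 features then tested.

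At day 7 no array was sparse, and the members' median difference was 0.0081, with 45 higher and 39 lower. Over all 486 features it was 0.052, with 57.8% higher. The members' median was near 0 and its sign was not stable: it ran from -0.045 without sham replicate 1 to 0.043 without sham replicate 6, and was also below 0 without MI replicate 2, 3 or 4 or sham replicate 5. RG380 read 176.1, 256.4 and 347.6 in MI and 140.2, 156.7 and 206.4 in sham, and 4 of the 6 MI arrays lay above all sham arrays. The difference was 0.56 (SE 0.27), with an adjusted p of 0.568. R643, given above, differed by 0.43 (SE 0.23, adjusted p 0.627). RG518 was lower, at 193.3, 231.9 and 238.0 in MI and 237.0, 287.2 and 322.3 in sham, with 5 of 6 MI arrays below all sham arrays and a difference of -0.32 (SE 0.19, adjusted p 0.692). RG291 differed by -0.24. None of these passed the threshold, and the groups overlapped in each.

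The shifts between days turned with the sparse arrays, all of which are from day 1 and from run 2. Without them, day 1 rests on run 5 and on replicate 1 of each group. In sham hearts the members' median difference of day 7 minus day 1 was 0.29, with 81 higher and 3 lower, beside 0.29 over all 322 features tested. Of those features 85.1% were higher. Without the 6 sparse arrays the members' median was -0.19, with 9 higher, beside -0.022 over the 305 features then tested. With that, 72 members had changed sign. Leaving out sham day 1 replicate 2 alone gave 0.127. R546 read 154.1, 228.0 and 245.2 at day 7 and 44.4, 124.8 and 205.1 at day 1, a difference of 1.00 (SE 0.32) and its adjusted p was 0.130. Without the sparse arrays R546 differed by 0.20. R234 differed by 0.89 over the 24 arrays and by -0.18 once the sparse ones were left out. The count of members called in this contrast rested on the remaining day 1 sham arrays: it was 17 without replicate 1 (20.8% of 192 features tested), 6 without replicate 5 (9.52% of 189) and 18 without replicate 6 (23.2% of 194), all of them upward. Those are the 3 day 1 sham arrays that are not sparse.

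In MI hearts the members' median difference of day 7 minus day 1 was 0.11, with 56 higher and 28 lower, beside 0.22 over all 354 features tested. Of those features 72.9% were higher. Without the 6 sparse arrays the members' median was -0.17, with 17 higher, beside -0.060 over the 311 features then tested. Leaving out a single array gave -0.011 without MI day 1 replicate 3 and 0.175 without MI day 1 replicate 5, and a fit that took the run as a random block gave 0.020. R234 read 208.1, 278.3 and 321.4 at day 7 and 97.3, 151.0 and 232.4 at day 1 (0.80, SE 0.35, adjusted p 0.216), and 4 day 7 arrays lay above all day 1 arrays. Without the sparse arrays R234 differed by 0.29. RG023 (-0.27) and R282 (-0.27) were the lowest, and their adjusted p were 0.413 and 0.643. Leaving out the sparse arrays gave -0.36 and -0.59. Once the sparse arrays were left out, 2 members were called, RG333 at -0.46 (adjusted p 0.0203) and RG361 at -0.52 (adjusted p 0.0295), beside 2.57% of 311 features tested. RG333 read 333.8 to 359.1 on the 6 MI day 7 arrays, and 454.9, 483.0 and 482.0 on the 3 MI day 1 arrays that were not sparse. On the 3 sparse MI day 1 arrays it read 343.0, 257.9 and 366.3, which overlap day 7.

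The interaction, the MI effect at day 7 minus that at day 1, had a median of -0.20 over the members, with 3 above 0 and 81 below, beside -0.13 over all 275 features. Of those features 36.7% were above 0. R643 (0.22) and RG380 (0.07) were highest, and R282 (-0.66) and RG036 (-0.56) lowest, and none passed the threshold. Without the sparse arrays these 4 members were 0.44, 0.24, -0.20 and -0.11, the ends of the list became R234 (0.47) and RG443 (-0.33), and the members' median was 0.011. Over the 247 features then tested the median was 0.011 as well. Leaving out a single array gave medians from -0.305 (without MI day 1 replicate 3) to -0.037 (without sham day 1 replicate 2), and sham day 1 replicate 4 and MI day 1 replicate 6 each moved it by over 1.5 times. All 5 contrasts share groups, so their medians are not independent of each other.

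With each array scaled so that the mean log2 intensity over all features listed everywhere was equal, the members themselves largely set the scaling, so their medians were near 0 by construction (-0.067 to 0.041 over the 5 contrasts) and say nothing of the groups. Single members can still differ from that mean. Of the 84, 9 were called in MI day 7 against day 1: R041, R083, R234, R546 and RG032 upward and R707, RG023, RG333 and RG382 downward. Beside them 18.1% of the 354 features tested were called. On the deposited scale without the sparse arrays, the upward members differed by 0.08, 0.26, 0.29, 0.22 and 0.08 in the order given. None of those was called there. The downward ones differed by -0.45, -0.36, -0.46 and -0.38, with RG333 called. In sham hearts R546 and R672 were called upward and RG019 downward, beside 7.45% of 322. On the deposited scale without the sparse arrays they differed by 0.20, -0.0086 and -0.38, and none was called.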

How the data were processed

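The authors deposited linear intensities, and 1 table held all 24 arrays. How they scanned, treated background, scaled and left cells blank is not given in the sources used here. Blank cells stayed missing. Identical values were found in 0 pairs of arrays. Intensities were taken to log2 with nothing added, and fitted with 1 mean per group (limma 3.58.1, lmFit then eBayes, under R 4.3.3). The fit was tested on simulated data in which features varied independently, with less spread than observed and no level shared within an array. That checks the code and not how the fit behaves with the shared array levels seen here. Ranks, SDs and correlations were computed in Python 3.11.15. No depth applies to arrays, and their number limits the precision. The members and lists were chosen with earlier results of these data known. Members named are the 4 at each end of level, spread and rank range, the 2 largest differences each way per contrast, and the 3 pairs at each end of centred r. Others were named after their values were seen. Alternatives were other scalings, 16 added before the log, leaving out arrays, runs as a block, other minima and thresholds, other spread models, other measures of spread and likeness. Leaving out the first run and centring on the members were added after seeing the data.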

Additional observations from a re-analysis of the deposited data

Results flagged for a closer look

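In 148 groups of 6 values looked at, 12 held an array whose gap to its nearest neighbour was large against the range of the group. The cutoff is one that about 1 in 20 groups of independent values would pass by chance. The groups looked at were not of that kind: most came from 34 named members, some picked for spread, rank range or differences. Members of an array also shared its level, so the count of 12 cannot be compared with chance. Of the 12, 10 were on arrays of the first run of title numbers, and 1 was on a sparse array. In sham day 7 replicate 2, R367 read 100 (others 161.4 to 169.1), R370 46.4 (63.0 to 70.1) and RG244 682.8 (450.3 to 536.4), and the SD of log2 intensity over the members was 0.688 (0.485 to 0.531). In MI day 7 replicate 2, R282 read 160.1 (281.2 to 349.4), R370 49.5 (71.7 to 77.5), R372 233.4 (136.5 to 153.3) and RG480 391.6 (254.0 to 298.5). R602 read 314.6 in sham day 7 replicate 1 (372.1 to 401.3), and RG518 193.3 in MI day 7 replicate 1 (228.7 to 238.0). R676 read 83.99 in MI day 7 replicate 3 (119.4 to 135.0). The sparse array was MI day 1 replicate 3, with RG077 at 377.7 (487.0 to 527.4).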

How the results depend on the processing

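Complete-probe scaling gave a median intensity of 268.3 in MI day 7, a spread of 0.198, a first component of 32.5%, a median pair r of -0.0117, and 9 and 3 members called in MI and sham day 7 against day 1. Quantile normalization gave a median pair r of 0.680. With it 1 member was called in MI day 7 against day 1, beside 5.37% of the 354 features tested. It turned R372 in sham day 7 against day 1 to 0.027. Without the sparse arrays the spread was 0.185, the first component 39.8%, the median pair r 0.304, the members called in MI day 7 against day 1 numbered 2, the sham median difference was -0.19, RG050 at day 1 was 0.042 and R234 in sham day 7 against day 1 was -0.18. The spread was 0.273 by median absolute deviation, and within-group likeness was 0.726 by Kendall tau, another scale. Leaving out each array in turn gave 0 to 1 member called in MI against sham at day 1 and 0 to 18 in sham day 7 against day 1. It turned the RG380 interaction (-0.090 to 0.239), R372 in sham day 7 against day 1 (-0.16 to 0.026) and RG050 at day 1 (-0.32 to 0.091). The members' medians for MI against sham at day 7 and for MI day 7 against day 1 also changed sign, as given above. The causes were not tested. The other 137 values of main results from other settings kept direction and side of the threshold, or moved by less than the spread. For the median differences that spread was 0.359, wider than each median itself, so their place in this count says little. Without the sparse arrays the MI median of day 7 minus day 1 went from 0.11 to -0.17. The interaction median went from -0.20 to 0.011, and that of MI minus sham at day 1 from 0.21 to 0.0090. All of these are counted in the 137. The labels give no replicate numbers that pair the samples. When the run was fitted as a block, 0 members were called in each of the 5 contrasts. Over all features tested, 3.89% of 283 were then called for MI against sham at day 1 and 2.47% of 486 at day 7. For the interaction it was 0% of 275, for MI day 7 against day 1 0.282% of 354, and for sham 0% of 322. The deposited values hold no background level, so signal over background is unknown.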

Other observations

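Besides R371, 53 of the 10420 listed values were exactly 100, on 22 arrays with 0 to 6 per array, while any other value occurred at most 2 times on an array. Of these, 11 of the 2016 values of the members were in 8 members: R367 on 3 arrays, R638 on 2, and R370, R109, RG167, RG309, RG416 and RG443 on 1 each. The labels do not say what the value stands for.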
